A study of Mus musculus with 3 samples.

Results

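The genes of tendon and of the fibrous layer that covers the mandibular condyle were described here as a set of 9, namely *Scx*, *Mkx*, *Tnmd*, *Thbs4*, *Tnc*, *Tnxb*, *Postn*, *Tgfbi* and *Fn1*. They were taken by gene symbol from a table of 26970 genes. Condyles came from 4-month-old WT, *Dspp*+/- and *Dspp*-/- mice. The mutants carry a germline knockout of *Dspp*, which encodes dentin sialophosphoprotein, on the C57BL/6 background, and heterozygotes were bred from null and wild-type mice. Each genotype is 1 sample with 1 column of RNA-seq values, taken here as 1 library, from condyle with the cartilage still joined to the bone under it. For WT and *Dspp*+/- the methods state that 3 animals were pooled, and the number behind *Dspp*-/- is not given in the sources used here. The labels also speak of triplicate samples with a library each, which could not be matched to the single columns, so whether a column holds 1 library or merged reads of several is unknown. The study asked whether lasting loss of 1 *Dspp* allele leads to osteoarthritis of the temporomandibular joint, mostly by imaging and staining of older mice. Its RNA sequencing asked how that loss affects bone formation and osteoclast differentiation in the condyle. With a single column per genotype there are no replicates to compare, so no test was possible and each difference below is one between libraries, with no measure of the spread between mice. Where 3 values are given in a row, they are those of WT, *Dspp*+/- and *Dspp*-/- in that order.

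Values are FPKM, fragment numbers scaled to the length of the gene and the size of the library. They are shares within a library, so a ratio between libraries also depends on what else each library holds. The depth recovered from the values was 20241578 fragments for the WT library, 23613620 for *Dspp*+/- and 22253157 for *Dspp*-/-. The intervals given below are 95% counting intervals from those fragments, exact Poisson for a level and Clopper-Pearson for a ratio of FPKM. They cover counting error only. Where libraries are counted as different, the threshold is 2-fold on the log2(FPKM + 1) scale, over the 13026 genes whose mean reached 1 FPKM, and that scale understates the change of genes with few FPKM. All 9 genes passed that minimum. Transcripts of the mitochondrial genome took 9.58% of the WT fragments but 16.5% of those of *Dspp*+/- and 16.1% of those of *Dspp*-/-. *Xist*, a marker of female cells, was read 2 times in WT but 12084 times in *Dspp*+/- and 10563 times in *Dspp*-/-, so sex and genotype cannot be told apart here. *Dspp* itself was not analysed here.

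Tendons, ligaments and the fibrous surface of the condyle are built by fibroblast-like cells that lay down type I collagen. Scleraxis (*Scx*) and Mohawk (*Mkx*) are the transcription factors that specify and maintain such cells, and tenomodulin (*Tnmd*), a membrane glycoprotein, is the marker of mature tenocytes. The other genes encode proteins secreted around collagen fibrils: the tenascins C and X, thrombospondin 4, the fasciclin-domain proteins periostin and TGFBI, and fibronectin. Several of these, periostin and tenascin C in particular, are also made in periosteum and perichondrium, and fibronectin is made by many cell types.

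*Postn* and *Tnc* turned out to be the genes with at least 2-fold lower values in *Dspp*+/-, so the 250 bases before their start sites are shown, next to those of *Tgfbi*, the closest relative of *Postn*, and of *Tnmd*, neither of which passed that threshold. The sequences are RefSeq's on GRCm38.p6, a build other than that of the deposited table, where 6 of the 9 genes had an entry, and each is printed 5′ to 3′ along the gene. Capitals mark CANNTG, the E-box that basic helix-loop-helix factors such as scleraxis can bind, and TATAAA, both searched on either strand. *Postn* lies on the + strand (chr3:54360857-54361106), *Tnc* on the - strand (chr4:64046937-64047186), *Tgfbi* on the + strand (chr13:56609336-56609585) and *Tnmd* on the + strand (chrX:133850758-133851007). *Postn* and *Tnc* each have another RefSeq start whose window is not printed.

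Postn: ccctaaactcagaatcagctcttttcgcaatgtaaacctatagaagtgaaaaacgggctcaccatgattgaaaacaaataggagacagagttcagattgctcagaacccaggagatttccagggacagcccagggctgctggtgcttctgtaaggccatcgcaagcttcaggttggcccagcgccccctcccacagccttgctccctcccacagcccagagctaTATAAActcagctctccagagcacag

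Tnc: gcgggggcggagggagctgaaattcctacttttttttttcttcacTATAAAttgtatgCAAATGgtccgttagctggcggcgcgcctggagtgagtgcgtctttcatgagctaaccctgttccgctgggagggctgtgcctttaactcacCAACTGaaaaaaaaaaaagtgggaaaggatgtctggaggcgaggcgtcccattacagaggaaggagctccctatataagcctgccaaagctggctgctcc

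Tgfbi: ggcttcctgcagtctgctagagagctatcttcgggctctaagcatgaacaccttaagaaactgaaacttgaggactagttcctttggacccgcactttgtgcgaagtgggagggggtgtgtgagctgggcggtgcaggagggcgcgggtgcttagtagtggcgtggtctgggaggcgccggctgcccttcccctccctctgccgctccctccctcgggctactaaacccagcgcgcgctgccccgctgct

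Tnmd: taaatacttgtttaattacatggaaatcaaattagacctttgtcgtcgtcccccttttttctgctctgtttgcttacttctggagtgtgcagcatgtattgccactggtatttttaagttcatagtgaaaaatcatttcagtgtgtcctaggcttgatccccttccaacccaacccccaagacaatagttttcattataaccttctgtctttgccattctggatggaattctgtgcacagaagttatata

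The *Tnc* window held 2 E-box matches and 1 TATAAA, and the *Postn* window held 1 TATAAA and 0 E-boxes. The unprinted windows held 3 E-boxes and 1 TATAAA for *Tnc* and 0 of either for *Postn*. The windows of *Tgfbi* and *Tnmd* held 0 of either. Of the 32851 promoter windows of the same length in the RefSeq table, 66.2% held CANNTG and 12.4% held TATAAA. The letters GTCTG, read on either strand as a core that SMAD proteins can bind, occurred in the printed windows 2 times for *Tgfbi*, 1 time for *Tnc* and 0 times for *Postn* and *Tnmd*, and in 42.2% of all windows. The windows of *Thbs4* and *Tnxb*, not printed, each held 1 E-box and 2 GTCTG, and the other windows of *Tnc* and *Postn* held 0 and 1 GTCTG. These are matches of letters, and no binding was measured.

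The 9 genes fell into an abundant and a scarce group. In WT, *Fn1* had 527.7 FPKM, *Postn* 431.3, *Tnc* 199.6 and *Thbs4* 180.8, which placed them at ranks 48, 55, 132 and 148 of the 13026 genes. *Tgfbi* had 25.9 FPKM, *Scx* 10.1, *Tnmd* 5.48, *Tnxb* 4.71 and *Mkx* 2.98. *Scx*, *Tnmd* and *Mkx*, the genes most specific to tendon, were thus among the scarce ones, and *Fn1* and *Postn* supplied 38.0% and 31.1% of the summed FPKM of the set. In WT the intervals of neighbours in this order overlapped only for *Tnmd* (4.64 to 6.43 FPKM) and *Tnxb* (4.45 to 4.99 FPKM).

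**Figure D1:**
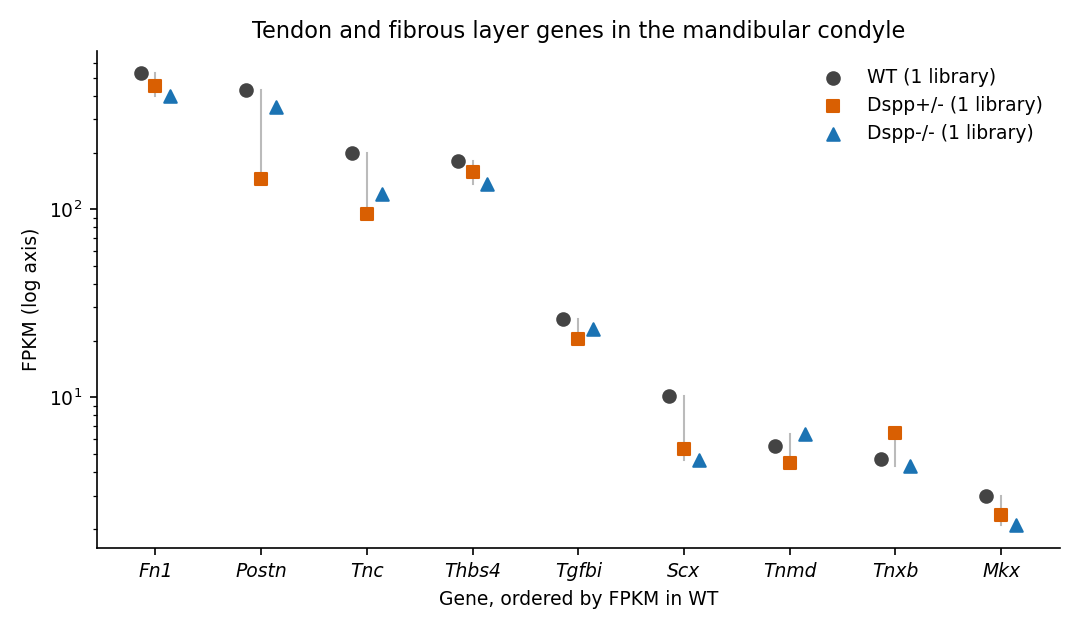
Level of each of the 9 genes in FPKM on a log axis, ordered by the WT level, with 1 point per library and grey lines joining the lowest and the highest. *Postn* shows the widest gap, with 431.3 FPKM in WT, compared with 145.1 in *Dspp*+/- and 350.7 in *Dspp*-/-, while *Fn1* and *Thbs4* stay close together.

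The order changed in the mutants. In *Dspp*+/- it ran *Fn1*, *Thbs4*, *Postn*, *Tnc*, *Tgfbi*, *Tnxb*, *Scx*, *Tnmd* and *Mkx*, with *Postn* behind *Thbs4*, and the intervals of *Scx* (4.68 to 6.02 FPKM) and *Tnmd* (3.77 to 5.27 FPKM) overlapped. In *Dspp*-/- it ran *Fn1*, *Postn*, *Thbs4*, *Tnc*, *Tgfbi*, *Tnmd*, *Scx*, *Tnxb* and *Mkx*, and the intervals of *Scx* (4.05 to 5.33 FPKM) and *Tnxb* (4.05 to 4.55 FPKM) overlapped. *Fn1* led and *Mkx* came last in all 3 libraries. The summed FPKM of the 9 genes was 1389 in WT, against 887.2 in *Dspp*+/- and 1046 in *Dspp*-/-, which is 0.639 and 0.754 of WT. Without *Postn* the sums were 957.3, 742.2 and 695.7 FPKM, or 0.775 and 0.727 of WT, so the lower sum in *Dspp*+/- than in *Dspp*-/- rested on *Postn*.

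In *Dspp*+/- against WT, 2 of the 9 genes were at least 2-fold lower and 0 were at least 2-fold higher. Over all 13026 genes, 2.86% were that much lower and 4.88% that much higher. The median log2 ratio of the set was -0.24, with 8 genes below 0, against a median of 0.058 over all genes. In *Dspp*-/- against WT, 0 genes passed the threshold in either direction, where 1.37% of all genes were at least 2-fold lower and 4.05% at least 2-fold higher. The median was -0.37 there, again with 8 genes below 0, against 0.007 over all genes. Both comparisons use the same WT library. By counting error alone, the interval of the ratio left out 1 for 8 of the 9 genes in each, *Tnmd* being the exception in both. That was so for 67.8% and 67.6% of the 12981 genes with a known length, so at this depth it says little about the set.

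**Figure D2:**
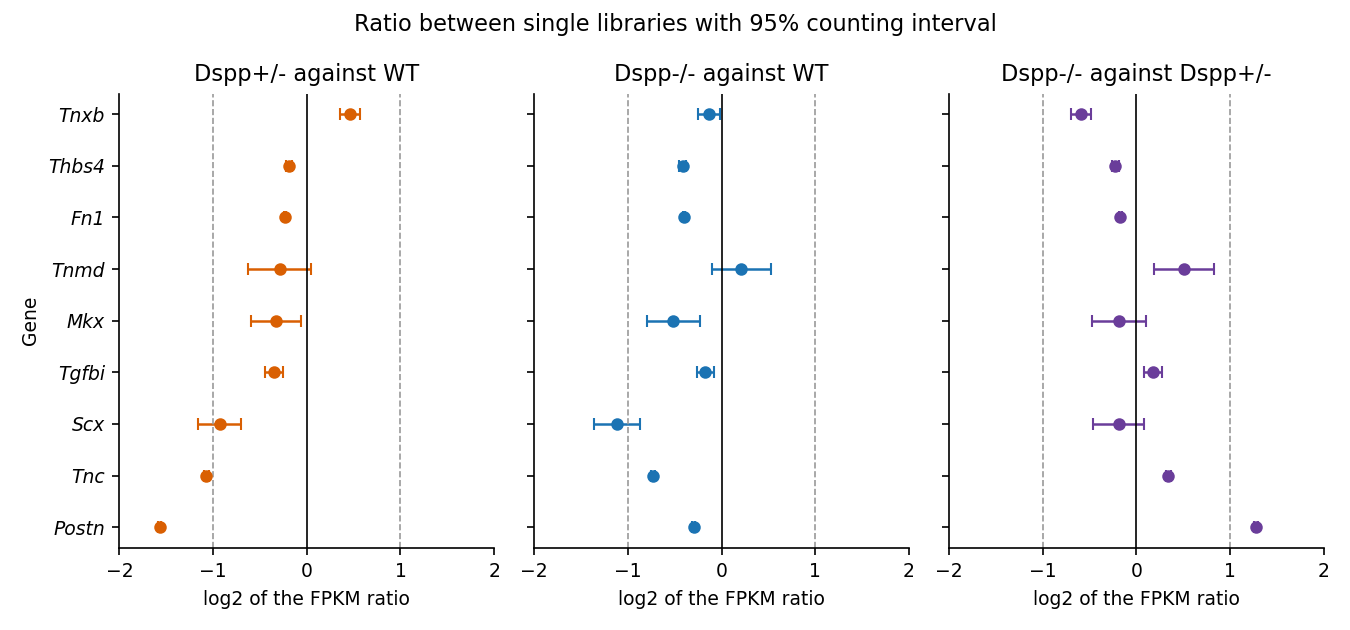
Log2 of the FPKM ratio of each gene between single libraries, with the 95% counting interval as bars, a solid line at no difference and dashed lines at 2-fold. *Postn* and *Tnc* lie left of the lower dashed line in *Dspp*+/- against WT, *Scx* lies there in *Dspp*-/- against WT, and *Postn* alone lies right of the upper dashed line in *Dspp*-/- against *Dspp*+/-.

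Periostin, which binds type I collagen and helps its fibrils to assemble and crosslink, differed most. *Postn*, on chromosome 3 from 54268530 to 54298458 in the deposited table, whose mouse build is not named, had 431.3 FPKM in WT, compared with 145.1 in *Dspp*+/- and 350.7 in *Dspp*-/-. The *Dspp*+/- library stood apart and the other libraries lay near each other. Its ratio to WT was 0.336 (interval 0.332 to 0.341) in *Dspp*+/-, from 75977 and 29807 fragments, and 0.813 (0.805 to 0.822) in *Dspp*-/-. Its rank among all genes was 55 for WT, 189 for *Dspp*+/- and 73 for *Dspp*-/-. None of the 8969 stretches of 100 bases in its exons occurs in another gene of GENCODE M21, while 2.91% of those of *Tnxb*, 2.61% of *Mkx* and 1.2% of *Fn1* do, so reads of these could be shared.

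*Tgfbi*, the other fasciclin-domain gene, encodes a TGF-beta-induced protein that links collagens to integrins, and lies on chromosome 13 from 56757336 to 56787375. It had 25.9 FPKM in WT, against 20.3 in *Dspp*+/- and 23.0 in *Dspp*-/-. The mutants were lower than WT by less than 2-fold, with ratios of 0.784 (0.735 to 0.836) and 0.886 (0.831 to 0.944). The quotient of *Postn* over *Tgfbi* was therefore 16.6 in WT, compared with 7.14 in *Dspp*+/- and 15.3 in *Dspp*-/-.

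Tenascin C is an adhesion-modulating glycoprotein of tendon, perichondrium and healing tissue. *Tnc*, at positions 63878022 to 63965252 of chromosome 4, had 199.6 FPKM in WT, against 94.8 in *Dspp*+/- and 120.2 in *Dspp*-/-. Both mutant libraries were below WT, with *Dspp*+/- the lowest. The ratio to WT was 0.475 (0.466 to 0.484) for *Dspp*+/- and, less far from WT, 0.602 (0.592 to 0.613) in *Dspp*-/-. On the log2(FPKM + 1) scale the first is -1.07, just past the threshold. An uncharacterised gene on the other strand, *8030451A03Rik*, overlaps 2.26% of its exon length, and that gene had 2.02, 0.902 and 1.16 FPKM.

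Tenascin X, which spaces collagen fibrils in loose connective tissue, went the other way. *Tnxb*, at positions 34879431 to 34938789 of chromosome 17, had 4.71 FPKM in WT, compared with 6.48 in *Dspp*+/- and 4.29 in *Dspp*-/-. It was the only one of the 9 genes above WT in *Dspp*+/-, at a ratio of 1.37 (1.28 to 1.48), and it was at 0.910 (0.839 to 0.988) in *Dspp*-/-. Its recovered fragments missed whole numbers by up to 0.38, so its gene length in the deposited table may differ from that in GENCODE M21 and its intervals are approximate. The quotient of *Tnc* over *Tnxb* was 42.4 in WT, against 14.6 in *Dspp*+/- and 28.0 in *Dspp*-/-.

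Thrombospondin 4 is a pentameric protein of tendon, of muscle attachments and of cartilage. *Thbs4*, at positions 92888098 to 92931326 of chromosome 13, had 180.8 FPKM in WT, compared with 158.6 in *Dspp*+/- and 135.5 in *Dspp*-/-. The *Dspp*-/- library was the lowest, and the ratios to WT were 0.877 (0.855 to 0.900) and 0.750 (0.730 to 0.770). Fibronectin, the adhesive glycoprotein on which collagen and other matrix proteins are deposited, showed the same order. *Fn1*, at positions 71624679 to 71692359 of chromosome 1, had 527.7 FPKM in WT, against 449.8 in *Dspp*+/- and 399.7 in *Dspp*-/-. Its ratios were 0.852 (0.846 to 0.859) and 0.757 (0.751 to 0.764), from 124802, 124103 and 103924 fragments, so these differences exceed counting error but stay under 2-fold. The share of *Fn1* in the summed FPKM of the set was 38.0% for WT, 50.7% for *Dspp*+/- and 38.2% for *Dspp*-/-.

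Of the transcription factors, *Scx* was lower in both mutants. It lies on chromosome 15 from 76341652 to 76343658 and had 10.1 FPKM in WT, compared with 5.32 in *Dspp*+/- and 4.66 in *Dspp*-/-, from 411, 252 and 208 fragments. The mutant libraries lay near each other and below WT. The ratio to WT was 0.526 (0.448 to 0.616) for *Dspp*+/-, and it was 0.460 (0.388 to 0.545) in *Dspp*-/-. On the log2(FPKM + 1) scale these are -0.82 and -0.97, so *Scx* falls just short of the 2-fold threshold there, although its plain ratio in *Dspp*-/- is past it. In GENCODE M21, *Scx* lies within the span of *Bop1*, a ribosome biogenesis gene on the other strand with 9.37, 8.77 and 9.27 FPKM, and shares 0 exon bases with it.

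*Mkx*, a homeobox gene on chromosome 18 from 6934518 to 7004780, was the scarcest of the set. It had 2.98 FPKM in WT, against 2.37 in *Dspp*+/- and 2.09 in *Dspp*-/-, with ratios of 0.795 (0.661 to 0.955) and 0.700 (0.576 to 0.849). Like *Scx* it was lowest in *Dspp*-/-. A gene model on the same strand, *AC148004.2*, overlaps 4.91% of its exon length. *Tnmd*, on the X chromosome from 132751729 to 132766326, had 5.48 FPKM in WT, compared with 4.48 in *Dspp*+/- and 6.34 in *Dspp*-/-. The mutant libraries lay on either side of WT, and neither ratio, 0.817 (0.645 to 1.03) and 1.16 (0.930 to 1.44), could be told from 1 at this depth of 143 to 191 fragments.

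Between the mutants, 1 of the 9 genes, *Postn*, was at least 2-fold higher in *Dspp*-/- than in *Dspp*+/-, and 0 were at least 2-fold lower. Over all genes these shares were 0.852% and 0.798%. The ratio of *Postn* was 2.42 (2.38 to 2.45). *Tnmd* was at 1.42 (1.14 to 1.77), *Tnc* at 1.27 (1.24 to 1.29) and *Tgfbi* at 1.13 (1.06 to 1.21). In the other direction, *Tnxb* was at 0.663 (0.615 to 0.713), *Thbs4* at 0.854 (0.832 to 0.877) and *Fn1* at 0.889 (0.881 to 0.896). The intervals of *Scx* (0.725 to 1.06) and *Mkx* (0.723 to 1.07) include 1, so that 7 of the 9 intervals left it out, as did 60.0% of those of all genes. The median log2 ratio of the set was -0.13, with 4 genes above and 5 below 0, against -0.04 over all genes.

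Relatives of the 9 genes in the same protein families also differed among themselves. *Tnn*, which encodes tenascin N of periosteum and bone, had 220.8 FPKM in WT, against 105.7 in *Dspp*+/- and 148.5 in *Dspp*-/-, so that the quotient of *Tnc* over *Tnn* was 0.904, 0.897 and 0.810. *Tnr*, the tenascin of the nervous system, stayed under 0.1 FPKM in all libraries. *Comp*, the pentameric thrombospondin of cartilage and tendon, had 461.7, 311.7 and 226.8 FPKM and, like *Thbs4*, was lowest in *Dspp*-/-. *Thbs3* had 24.9, 10.6 and 13.4 FPKM, *Thbs2* 33.2, 26.6 and 28.1 FPKM, and *Thbs1*, which platelets also carry, 38.4, 48.9 and 49.3 FPKM. *Cnmd*, the cartilage relative of *Tnmd*, had 6.94 FPKM in WT, compared with 0.138 in *Dspp*+/- and 1.98 in *Dspp*-/-, a ratio of 0.0199 (0.00722 to 0.0438) in *Dspp*+/- where *Tnmd* was at 0.817. *Tcf15*, a helix-loop-helix relative of *Scx*, had 15.8, 17.3 and 13.5 FPKM.

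The wider tendon and fibrous matrix was read from 7 lists of related genes, in which 83 of 87 genes passed the minimum. Of these, 20 were at least 2-fold lower and 1 was at least 2-fold higher in *Dspp*+/- than in WT. In *Dspp*-/-, 3 were lower (*Comp*, *Cnmd* and *Emilin1*) and 1 was higher. The shares of all 13026 genes were 2.86% lower and 4.88% higher in *Dspp*+/-, and 1.37% and 4.05% in *Dspp*-/-. The lists were chosen with earlier results of these data known. Fibril collagens made up 9 of the 20, out of 11 listed, with a median log2 ratio of -1.52, and 0 of the 11 passed in *Dspp*-/- with a median of -0.78. *Col1a1*, the main collagen gene of bone and tendon, had 6675 FPKM in WT, against 1719 in *Dspp*+/- and 3610 in *Dspp*-/-. *Col1a2* was the lowest of the list in *Dspp*+/-, at a ratio of 0.252 (0.250 to 0.253), and *Col14a1*, a collagen on the surface of tendon fibrils, was the highest, at 1.08 (0.979 to 1.2). The quotient of *Postn* over *Col1a1* was 0.0646 in WT, compared with 0.0844 in *Dspp*+/- and 0.0972 in *Dspp*-/-, higher in both mutants than in WT.

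For the counts that follow, 2.86% of all genes were at least 2-fold lower in *Dspp*+/-. Fibroblast genes lay close to the 9 genes, with a median of -0.24 in *Dspp*+/- and -0.31 in *Dspp*-/-, and 1 of 12 was at least 2-fold lower in *Dspp*+/-. That gene was *Fap*, a protease of activated fibroblasts, with 114.0 FPKM in WT, against 48.9 in *Dspp*+/- and 90.2 in *Dspp*-/-. *Gsn*, the most abundant of the list, had 439.7, 377.1 and 313.2 FPKM, and *Pi16*, a marker of adventitial fibroblasts, was highest against WT, with 2.38, 5.75 and 3.98 FPKM. The plain ratio of *Pi16* in *Dspp*+/- was 2.41 (2.12 to 2.76). On the log2(FPKM + 1) scale that gene was at 0.996, just short of the 2-fold threshold. Of the 11 small proteoglycan and related matrix genes, 1 was at least 2-fold lower in *Dspp*+/-: *Lum*, which regulates collagen fibril width, had 512.1 FPKM in WT, compared with 223.8 in *Dspp*+/- and 478.3 in *Dspp*-/-. *Fmod*, which encodes fibromodulin, had 1032, 621.1 and 621.0 FPKM, and *Cilp*, which had the highest ratio of the list in *Dspp*+/- but was below WT in *Dspp*-/-, had 99.1, 143.7 and 76.3 FPKM. *Lum* and *Fap* shared with *Postn* a low value in *Dspp*+/- and a value nearer WT in *Dspp*-/-, which was not particular to them. Higher in *Dspp*-/- than in *Dspp*+/- were also 10 of the 11 fibril collagens, and all 7 osteoblast markers. So were all 8 chondrocyte markers that passed the minimum, while 7 of the 12 fibroblast genes were lower. Of 12 elastic fibre genes, 3 were at least 2-fold lower in *Dspp*+/-, among them *Mfap2*, with 22.7, 7.73 and 13.1 FPKM, and *Emilin1*, with 35.9, 14.7 and 14.1 FPKM. *Fbln2* had their highest ratio in *Dspp*+/-, with 20.1, 27.6 and 19.8 FPKM.

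**Figure D3:**
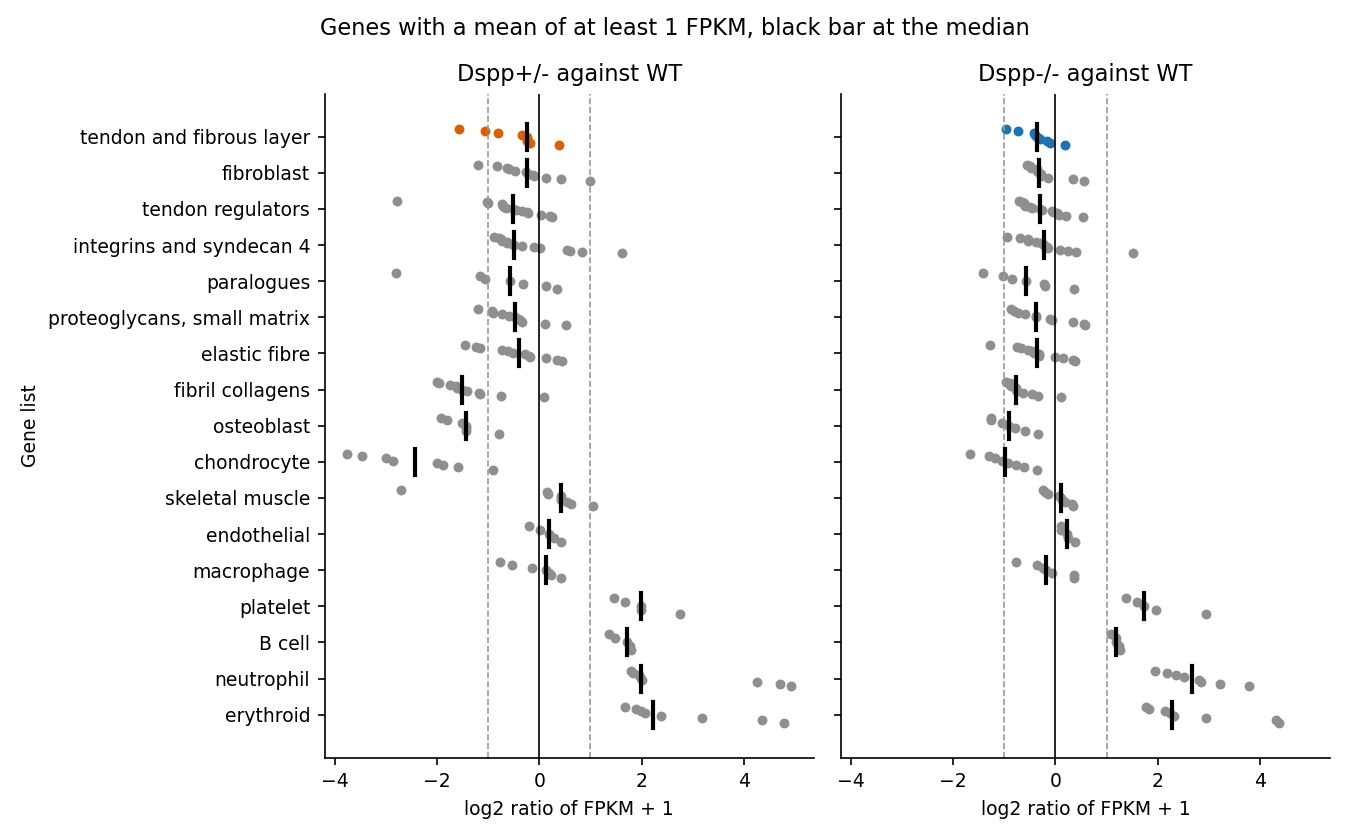
Log2 ratio of FPKM + 1 to WT for each gene that passed the minimum of 1 FPKM, by gene list, with a black bar at the list's median and dashed lines at 2-fold. The 9 tendon and fibrous layer genes (coloured) have medians of -0.24 and -0.37, which lie between those of the bone and cartilage lists on the left and the blood cell lists on the right.

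Upstream of these genes, TGF-beta signalling is known to induce *Scx*, *Postn*, *Tgfbi* and *Fn1*. Of the 15 regulators that passed the minimum, 3 were at least 2-fold lower in *Dspp*+/- and 0 in *Dspp*-/-, with medians of -0.51 and -0.29. The shares of all genes that much lower were 2.86% and 1.37%. *Tgfb2* had 33.8 FPKM in WT, against 16.2 in *Dspp*+/- and 20.4 in *Dspp*-/-. *Ccn2*, a matrix gene that TGF-beta induces and the most abundant of the list, had 379.1, 188.3 and 241.3 FPKM. A list of integrin and syndecan genes, which includes receptors for periostin, tenascins and fibronectin but is not limited to them, had 15 genes past the minimum. Their median was -0.49 in *Dspp*+/- and -0.21 in *Dspp*-/-, with 0 at least 2-fold lower and 1 at least 2-fold higher in each. Over all genes, 4.88% and 4.05% were that much higher, so a count of 1 says little about the list. The higher gene of the list was *Itga4*, an integrin chain that white blood cells carry, with 1.14, 5.59 and 5.11 FPKM. *Itgb1*, the most abundant, had 173.6, 136.6 and 157.4 FPKM, and *Sdc4* was the lowest against WT, with 78.0, 41.9 and 40.1 FPKM.

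Markers of other cell types differed between these libraries as well, in both directions. The 7 osteoblast markers summed to 3526 FPKM in WT, against 1012 in *Dspp*+/- and 1723 in *Dspp*-/-, with medians of -1.43 and -0.90. The 10 chondrocyte markers summed to 1266, 175.7 and 558.7 FPKM, with medians of -2.43 and -0.98 over 8 genes that passed the minimum. *Matn1* was below that minimum and near 0 in all libraries, with 0.049, 0 and 0.067 FPKM. The osteoblast and chondrocyte sums both run in the order of *Postn*, lowest in *Dspp*+/- and intermediate in *Dspp*-/-. The 8 erythroid markers summed to 903.5, 3756 and 3639 FPKM and the 8 neutrophil markers to 591.5, 2629 and 3480 FPKM. The 5 platelet markers summed to 23.2, 123.5 and 135.1 FPKM and the 5 B cell markers to 315.2, 897.3 and 758.5 FPKM. All genes of these 4 blood cell lists were at least 2-fold higher in both mutants, against 4.88% of all genes in *Dspp*+/- and 4.05% in *Dspp*-/-. Skeletal muscle, which inserts near the condyle, gave 11030, 15410 and 12500 FPKM over 10 markers. *Myh4*, a fast myosin gene, went against that sum, with 123.8, 18.15 and 111.2 FPKM, and 3 of the 9 muscle genes that passed the minimum were below WT in *Dspp*-/-. *Tnnc2* was listed at 0, 0.053 and 0 FPKM, whereas *Tnnt3*, another troponin gene, had 1450, 1950 and 1218 FPKM. Why the *Tnnc2* values were so low was not tested, and they need not mean that the gene was silent. The 5 endothelial markers summed to 109.8, 127.7 and 124.7 FPKM and the 7 macrophage markers to 185.1, 158.3 and 155.8 FPKM, with no gene past the threshold. The macrophage sum did not hold gene by gene. In *Dspp*+/-, 4 of these markers were above WT and 3 below, with a median of 0.13. In *Dspp*-/-, 2 were above and 5 below, with a median of -0.18. The part that these shares of other cells have in the values of the 9 genes was not tested, and in bulk tissue fewer cells of a type and less RNA per cell cannot be told apart.

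Over the 3 libraries, the genes most like a member were sought for the most abundant ones, by the distance between their pairs of log2 ratios to WT among 4039 genes whose mean reached 10 FPKM. Nearest to *Postn* were *Hapln1*, a cartilage link protein gene that is also one of the chondrocyte markers (distance 0.066), *Scrg1* (0.15) and *Cdo1* (0.16). *Hapln1* had 46.8 FPKM in WT, compared with 15.0 in *Dspp*+/- and 36.2 in *Dspp*-/-. Nearest to *Tnc* were *Islr* (0.0058), *Nt5dc2* (0.015) and *Rab34* (0.024), and *Islr* had 105.4, 50.01 and 63.2 FPKM. Nearest to *Fn1* were *Srebf2* (0.0022), *Git1* (0.0071) and *Qdpr* (0.0085). With 3 libraries these distances only describe the values.

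The direction of each gene against WT was the same under each of the 5 scalings tried. Scaling by 8 housekeeping genes gave the lowest ratios and scaling without mitochondrial genes the highest. The former moved the median of all genes by -0.167 in *Dspp*+/- against WT and by 0.12 in *Dspp*-/- against *Dspp*+/-, and the ratios should be read relative to that shift. The share of differing genes that were higher went from 63.0% to 44.0% and from 51.6% to 65.3% with it. Without mitochondrial genes *Tnc* came to -0.95 in *Dspp*+/-, under the threshold, while *Postn* ranged from -1.77 to -1.45 over the scalings. *Tnxb* in *Dspp*-/- was the value nearest to 0, at -0.02 without mitochondrial genes.

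**Figure D4:**
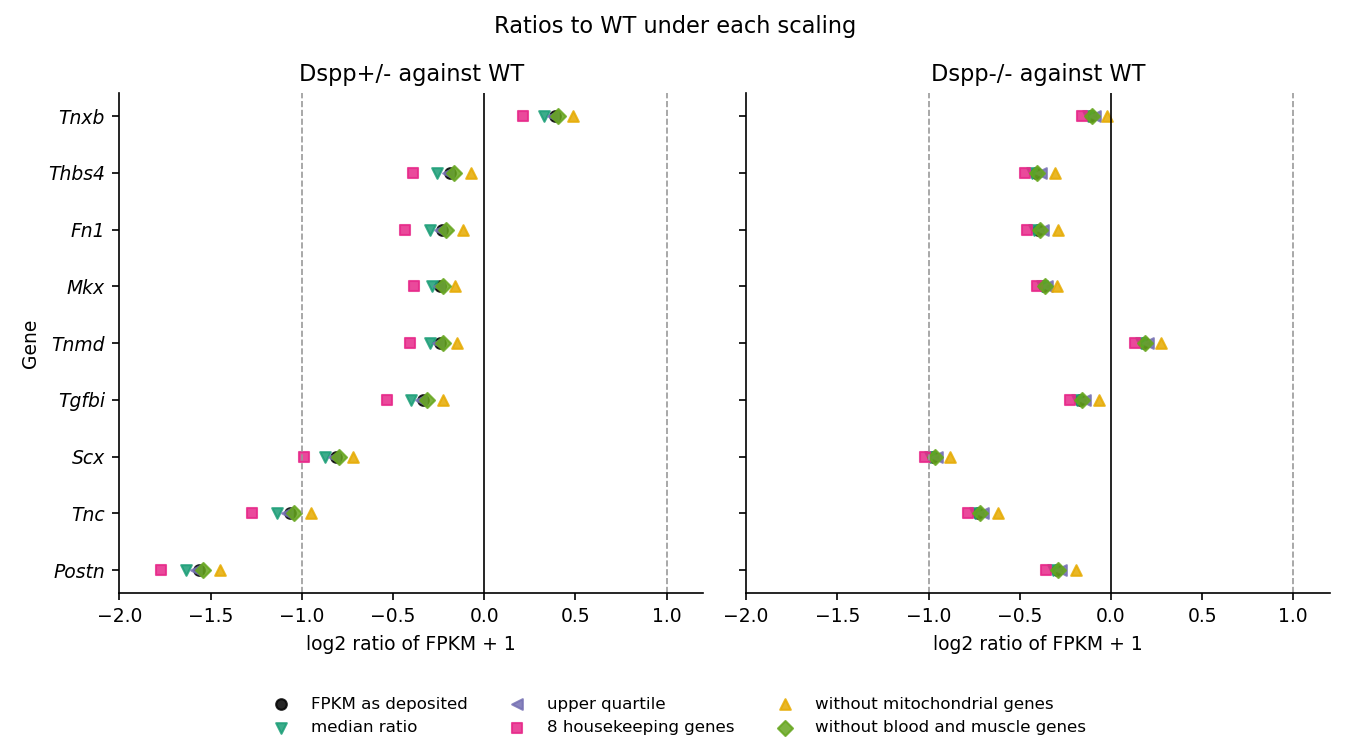
Log2 ratio of FPKM + 1 to WT for the 9 genes with FPKM as deposited and under 5 other scalings, with a solid line at no difference and dashed lines at 2-fold. All points of a gene stay on one side of the solid line, and *Tnc* in *Dspp*+/- and *Scx* in *Dspp*-/- are the genes whose points lie on both sides of the lower dashed line.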

How the data were processed

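RNA was sequenced from 3 condyle samples, 1 per genotype, as paired reads of 150 bases from poly(A)-selected libraries. The unit of the 26970 values per sample that the authors deposited is not named, and they were read as FPKM because FPKM times exon length (GENCODE M21, 26641 genes) gave whole fragments: under 100 fragments, 98.6% of values in each library came within 0.05 of a whole number. The submitters' processing notes name FastQC 0.11.5, HISAT2 2.1.0, StringTie 1.3.3b, DESeq 1.28.0 and hg38, a human build, whereas the genes listed are of mouse. Positions are printed as deposited and are not those of GRCm38, with which 578 genes share start and end. Strand use in counting is not given in the sources used here.

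Genes were compared as log2 ratios of FPKM + 1 with a minimum mean of 1 FPKM and a threshold of 2-fold. The Kruskal-Wallis test of the study's methods cannot be run on single libraries. The computation was tested on simulated data. The members, related lists and markers were chosen with earlier results of these data known. All members and paralogues are named, and from each other related list the most abundant gene in WT and those with the highest and lowest ratio in *Dspp*+/-, apart from results that are not reported here. *Tgfb2* and single genes of other lists were named after their values were seen. Alternatives were pseudocounts of 0.1 and 5, no minimum and a minimum of 5 FPKM, 5 scalings (median ratio, upper quartile, 8 housekeeping genes, without mitochondrial genes, and without hemoglobin, immunoglobulin and muscle genes), and thresholds of 1.5-fold and 4-fold. For *Dspp*-/- against *Dspp*+/- they were added after seeing the data. Computation used scipy 1.17.1, pandas 2.3.3, numpy 2.4.6 and Python 3.11.15, with matplotlib 3.10.9 for plots.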

Additional observations from a re-analysis of the deposited data

How the results depend on the processing

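The medians of the 9 genes against WT stayed below 0 under all alternatives run. They ranged from -0.44 to -0.16 in *Dspp*+/- and from -0.41 to -0.29 in *Dspp*-/- against WT. The number at least 2-fold lower in *Dspp*+/- was 2 as reported, 1 without mitochondrial genes, where *Tnc* came under the threshold, 3 at a 1.5-fold threshold and 0 at a 4-fold threshold. In *Dspp*-/- it was 0 as reported, 1 with a pseudocount of 0.1 and 1 under scaling by 8 housekeeping genes, which is *Scx* in both cases, and 2 at a 1.5-fold threshold. *Postn*, the 1 gene at least 2-fold higher in *Dspp*-/- than in *Dspp*+/-, was not at a 4-fold threshold (0 genes). The median between the mutants turned from -0.13 to 0.004 with a minimum of 5 FPKM, which leaves out *Mkx*. No gene of the set changed its direction in any of the 3 comparisons under these alternatives. Over all genes, the numbers at least 2-fold higher and lower in *Dspp*+/- were 636 and 373 as reported, 971 and 605 with a pseudocount of 0.1, 185 and 156 with 5, 281 and 272 with a minimum of 5 FPKM, 453 and 577 under housekeeping scaling, 1501 and 1166 at 1.5-fold, and 124 and 24 at 4-fold. In *Dspp*-/- they were 527 and 179, then 836 and 363 with a pseudocount of 0.1, 136 and 45 with 5, 228 and 110 with the higher minimum, 1152 and 1070 at 1.5-fold, and 103 and 6 at 4-fold. Between the mutants they were 111 and 104, then 223 and 214, 36 and 36, 57 and 52, 441 and 563, and 15 and 13 under those same settings, and 172 and 170 with no minimum. No paired analysis was possible because each genotype has 1 library. Depth limits the scarce genes most, since *Tnmd* had 143 to 191 fragments per library. With 1 library per genotype, variation between mice, litters and dissections has no estimate.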
